A study of Homo sapiens with 6 samples.

Results

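Splicing factor and hnRNP genes were taken as all probes whose platform gene symbol begins with SRSF, HNRNP, SF3A, SF3B, SNRP, PRPF or U2AF, together with those for MATR3. The array held 46 such probes for 27 genes, out of 15246 probes. Of the 27 genes, 26 had values on at least 2 of the 3 arrays of each siRNA and were kept, among 8797 features kept in all (4393 named genes and 4404 unnamed probes). The exception was HNRNPLL, an hnRNP L relative known for splicing of CD45 in T cells, whose probe was blank on all 6 arrays. No gene with an SF3A symbol was among them, and SF3B, PRPF and SNRP were represented by 1, 3 and 2 genes.

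The RNA was that of Jurkat, an established T-cell line from a human leukaemia, after transfection with siRNA against RPS3 (ribosomal protein S3) or against p65 (the product of RELA, a subunit of NF-kB). Each of 6 2-colour spotted arrays set that RNA, labelled with Cy5, beside Cy3-labelled RNA of cells given nonspecific siRNA, and both kinds of cells had received anti-CD3/CD28 (1 ug) for the same time, 1, 3 or 6 h. There was thus 1 array per siRNA and time, and no array of unstimulated cells was analysed here. The series asks about RPS3 as a partner of p65 in NF-kB complexes. The deposited log ratios are read as log2 of siRNA over control, a likely direction that the files do not state.

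Pre-mRNA splicing removes introns in the spliceosome, which is built from small nuclear RNAs and their proteins (snRNPs). The U1 snRNP binds the 5′ splice site, U2AF and the U2 snRNP bind the 3′ splice site and branch point, and the U4/U6 and U5 snRNPs then join. SR proteins mostly promote, and hnRNP proteins often restrain, the use of an exon, and T-cell activation is known to change the splicing of many transcripts.

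Of the 25 genes that could be tested for a change at 6 h against 1 and 3 h, 4 rose: SRSF4 (7.14-fold), MATR3 (4.81-fold), PRPF38B (2.18-fold) and SNRPA (1.88-fold), each past a limma adjusted p of 0.05 with both siRNAs in 1 fit. None of the genes fell by that test. Of all 8608 features, 4.87% rose and 0.279% fell by it. The 4 rising genes encode an SR protein, a nuclear matrix RNA-binding protein, a PRPF protein and a U1 snRNP protein. Among the other 21 genes, the lowest adjusted p-values belonged to HNRNPK, U2AF2 and HNRNPH1, all with lower ratios at 6 h. A change in these ratios is relative to the control RNA of the same time, so altered siRNA-treated and altered control cells cannot be told apart.

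The stretches before the transcription starts of the 4 genes that rose are shown because their ratios moved together and the study concerns a transcription factor. They are RefSeq sequence of GRCh38.p14, 250 bases ending at the base before the start, 5′ to 3′ on the gene's strand. SRSF4 lies on the minus strand (chr1:29181901-29182150), and MATR3 (chr5:139273851-139274100), PRPF38B (chr1:108692060-108692309) and SNRPA (chr19:40750953-40751202) on the plus strand. Capitals mark the motifs found on either strand, namely the ETS core in SRSF4, the NF-kB consensus in MATR3 and the CCAAT box in PRPF38B and SNRPA.
SRSF4: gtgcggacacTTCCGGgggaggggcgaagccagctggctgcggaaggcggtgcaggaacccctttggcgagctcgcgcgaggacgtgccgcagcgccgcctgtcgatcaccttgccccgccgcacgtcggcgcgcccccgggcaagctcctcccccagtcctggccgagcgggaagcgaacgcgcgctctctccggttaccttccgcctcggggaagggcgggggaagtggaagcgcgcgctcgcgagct
MATR3: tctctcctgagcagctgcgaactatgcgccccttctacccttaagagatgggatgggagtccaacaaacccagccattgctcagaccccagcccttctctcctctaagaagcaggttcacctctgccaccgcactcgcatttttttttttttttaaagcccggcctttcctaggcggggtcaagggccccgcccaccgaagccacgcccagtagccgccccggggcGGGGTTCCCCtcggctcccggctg
PRPF38B: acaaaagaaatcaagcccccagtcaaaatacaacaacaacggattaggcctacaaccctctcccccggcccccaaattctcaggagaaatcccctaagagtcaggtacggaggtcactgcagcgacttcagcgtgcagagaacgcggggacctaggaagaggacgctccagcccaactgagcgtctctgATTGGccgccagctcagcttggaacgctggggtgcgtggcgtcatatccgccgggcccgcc
SNRPA: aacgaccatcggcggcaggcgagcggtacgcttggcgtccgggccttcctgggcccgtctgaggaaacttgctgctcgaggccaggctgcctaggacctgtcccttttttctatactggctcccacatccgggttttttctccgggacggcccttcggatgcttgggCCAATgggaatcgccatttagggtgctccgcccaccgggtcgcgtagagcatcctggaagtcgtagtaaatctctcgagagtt

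The 5 motifs searched on both strands were the CCAAT box (CCAAT), the ETS core (CCGGAA), the E-box (CACGTG), the cyclic AMP response element (TGACGTCA) and the NF-kB consensus, and none of these letter strings lies inside another. Promoters were matched for 24 of the 26 genes, and not for HNRNPA1 and HNRNPA1P70. The CCAAT box was in 10 of the 24 (41.7%), against 33.0% of all 27305 promoters of the same length. The ETS core was in 6 (25.0% against 14.8%) and the E-box in 3 (12.5% against 6.49%). The NF-kB consensus was in 2, MATR3 and PRPF4 (8.33% against 5.05%), and the cyclic AMP response element in 0 (against 1.77%). GC content had a median of 61.4% in the 24 promoters and 58.0% in all. A match is a description of letters, and no difference in these shares was tested.

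Blank cells made up 9.04%, 7.20% and 15.1% of the RPS3 siRNA arrays at 1, 3 and 6 h and 5.40%, 10.1% and 14.8% of the p65 siRNA arrays, so the share was highest at 6 h. Ratios of the RPS3 probe were -2.50, -2.53 and -1.44 with RPS3 siRNA and 0.11, 0.01 and 1.11 with p65 siRNA. RELA read -0.39, -0.69 and -0.54 on the RPS3 siRNA arrays and -0.41, -0.46 and -0.59 on the p65 siRNA arrays, so it lay below 0 on all 6 arrays, with means of -0.54 with RPS3 siRNA and -0.49 with p65 siRNA. Of 11 T-cell markers, 4 rose at 6 h (CD247, ZAP70, LCK and CD5), against 4.87% of all features, with a list median of 0.65. Of 15 markers of other blood lineages 0 passed by limma, with a median of -0.03. At an unadjusted p under 0.05, 1 of these was higher and 1 lower (16.8% and 10.5% of all features). Of 13 reference genes 9 were higher and 4 lower at 6 h, with a median of 0.31. By adjusted p 2 of these rose, against 4.87% of all features, GAPDH by 0.96 and ACTB by 0.92 on the log2 scale. These shifts moved with the genes that rose at 6 h, and their part in that result was not tested. Log ratios hold no levels, so the cell type could not be checked as a level.

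**Figure D1:**
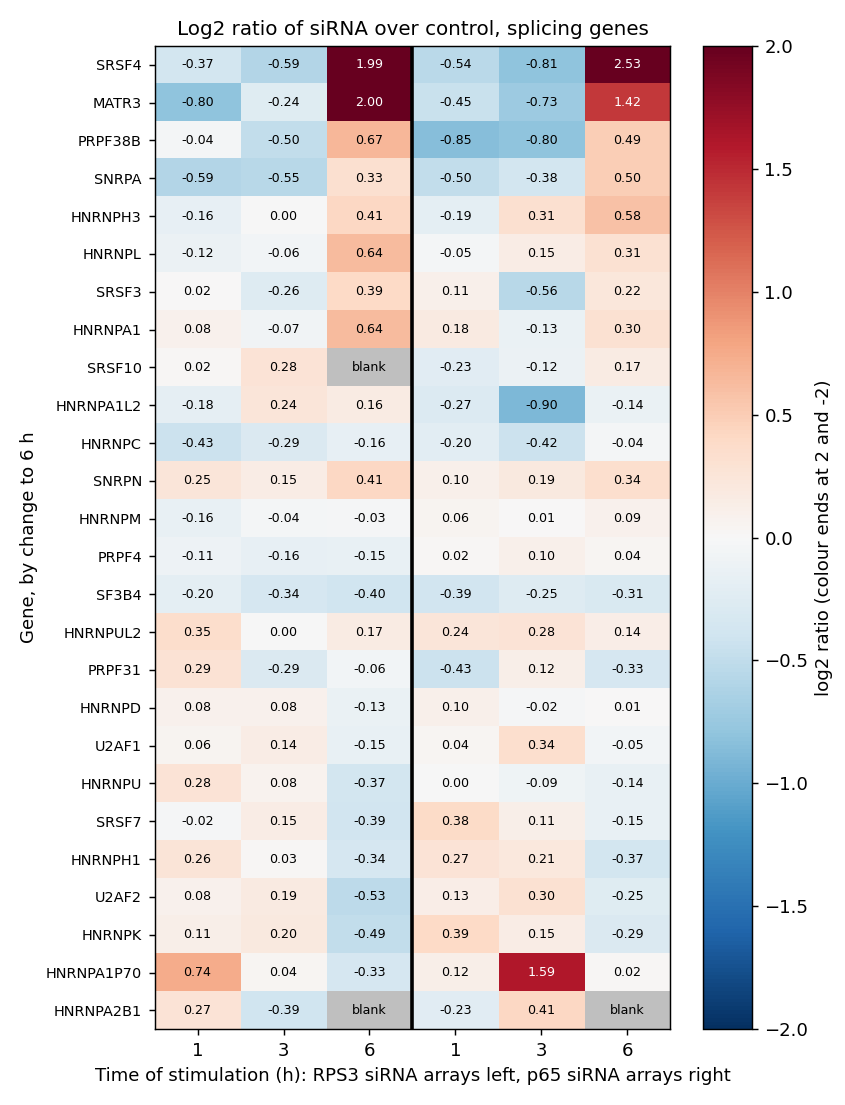
Log2 ratio of siRNA over control for the 26 genes kept, with the 3 RPS3 siRNA arrays left of the 3 p65 siRNA arrays and times in h along the axis; rows run from the highest to the lowest change to 6 h, and grey cells are blank. SRSF4 and MATR3 stand out at 6 h with both siRNAs (1.99 and 2.53 for SRSF4, 2.002 and 1.42 for MATR3).

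On single arrays the 26 genes were spread on both sides of 0. With RPS3 siRNA 14, 11 and 11 genes lay above 0 at 1, 3 and 6 h, of 26, 26 and 24 measured. With p65 siRNA 13, 14 and 15 lay above 0, of 26, 26 and 25. The median of the genes stayed between -0.04 and 0.05 on all 6 arrays. Their standard deviation was 0.32, 0.25 and 0.67 with RPS3 siRNA, beside 0.39, 0.23 and 0.43 for all features on those arrays. With p65 siRNA it was 0.31, 0.51 and 0.62, beside 0.26, 0.45 and 0.35 for all features. The wider spread at 6 h than that of all features rested on SRSF4 and MATR3, as the map of log2 ratios shows. Without these, a choice made after seeing the values, the standard deviation at 6 h was 0.39 with RPS3 siRNA and 0.28 with p65 siRNA, below that of all features. At 1 and 3 h it was then 0.27 and 0.24 with RPS3 siRNA, still less than at 6 h. With p65 siRNA it was then 0.30 and 0.49 at 1 and 3 h, more than at 6 h.

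The SR proteins were SRSF3, SRSF4, SRSF7 and SRSF10. SRSF4, a large SR protein that binds exonic splicing enhancers, read -0.37, -0.59 and 1.99 with RPS3 siRNA and -0.54, -0.81 and 2.53 with p65 siRNA at 1, 3 and 6 h. All 4 earlier arrays lay below 0 and both 6 h arrays far above, without overlap. The change was 2.84 (SE 0.21, limma adjusted p = 0.00793) from a mean of 2.26 at 6 h and -0.58 earlier, and it was the highest but 5 of the 8608 features tested. SRSF4 has 1 probe on the array, so no other spot bears on that value. The gene lies at chr1:29147743-29181900 in GRCh38.p14.

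SRSF3, the smallest SR protein, read 0.02, -0.26 and 0.39 with RPS3 siRNA and 0.11, -0.56 and 0.22 with p65 siRNA. Its 6 h values were the highest of each siRNA, but the change of 0.48 (SE 0.21) did not pass (limma adjusted p = 0.205). Without both 1 h arrays the change was 0.72 and passed (limma adjusted p = 0.0185), the only 1 of 16 alternative settings in which it did. SRSF7, an SR protein with a zinc knuckle, went the other way. It read -0.02, 0.15 and -0.39 with RPS3 siRNA and 0.38, 0.11 and -0.15 with p65 siRNA, a change of -0.42 (SE 0.14, limma adjusted p = 0.124). All 6 of its probes were lower at 6 h, by -0.58 to -0.22 on the log2 scale, which makes it the gene with most probes of 1 direction here. SRSF10, which can act as a splicing repressor, had no value on the RPS3 siRNA array at 6 h. It read 0.02 and 0.28 with RPS3 siRNA at 1 and 3 h and -0.23, -0.12 and 0.17 with p65 siRNA. Its fitted change of 0.34 (limma adjusted p = 0.357) thus rests on the p65 siRNA arrays.

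Of the hnRNP proteins and MATR3, 13 were tested at 6 h, with 7 higher and 6 lower, against 48.3% and 51.7% of all features. By adjusted p 1 of the 13 rose, against 4.87% of all features. MATR3, which encodes matrin 3, an RNA-binding protein of the nuclear matrix, read -0.80, -0.24 and 2.002 with RPS3 siRNA and -0.45, -0.73 and 1.42 with p65 siRNA. Both 6 h values lay far above the 4 earlier ones. The change was 2.27 (SE 0.22, limma adjusted p = 0.00913), from a mean of 1.71 at 6 h and -0.56 earlier. MATR3 (chr5:139274101-139331677) has 2 probes, and 1 of them was blank on both 6 h arrays, so its 6 h values come from the other alone. That probe by itself read -1.21, -0.39 and 2.002 with RPS3 siRNA and -0.53, -1.66 and 1.42 with p65 siRNA, a change of 2.66 (limma adjusted p = 0.0141 with each probe tested alone). The blank one stayed between -0.38 and 0.19 on the 4 earlier arrays.

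Next to the pseudogene HNRNPA1P70, described with HNRNPA1, the most negative changes of the hnRNP genes were those of HNRNPK and HNRNPH1. HNRNPK, which binds C-rich stretches, read 0.11, 0.20 and -0.49 with RPS3 siRNA and 0.39, 0.15 and -0.29 with p65 siRNA. Its change was -0.60 (SE 0.14, limma adjusted p = 0.0589), with both probes lower, at -0.68 and -0.60. HNRNPH1, which binds runs of G, read 0.26, 0.03 and -0.34 with RPS3 siRNA and 0.27, 0.21 and -0.37 with p65 siRNA, a change of -0.55 (SE 0.13, limma adjusted p = 0.0705). For both genes all 4 earlier values were above 0 and both 6 h values below, yet neither passed the test over all features. Each passed in only 2 of 16 alternative settings. Among these was the one limited to features with values on all 6 arrays (adjusted p = 0.0370 and 0.0465 by limma). HNRNPU, a nuclear scaffold protein, read 0.28, 0.08 and -0.37 with RPS3 siRNA and 0.00, -0.09 and -0.14 with p65 siRNA, with a change of -0.32 (limma adjusted p = 0.245).

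HNRNPH3, HNRNPL and HNRNPA1 had higher ratios at 6 h, without passing. HNRNPH3, a relative of HNRNPH1, read -0.16, 0.00 and 0.41 with RPS3 siRNA and -0.19, 0.31 and 0.58 with p65 siRNA, a change of 0.51 (SE 0.18, limma adjusted p = 0.131). The relatives HNRNPH3 and HNRNPH1 thus had changes of opposite sign, a contrast that was not tested. HNRNPL, which binds CA repeats, read -0.12, -0.06 and 0.64 with RPS3 siRNA and -0.05, 0.15 and 0.31 with p65 siRNA, a change of 0.49 (SE 0.16, limma adjusted p = 0.120). HNRNPA1, a repressor of exon inclusion, read 0.08, -0.07 and 0.64 with RPS3 siRNA and 0.18, -0.13 and 0.30 with p65 siRNA, a change of 0.45 (SE 0.16, limma adjusted p = 0.139). HNRNPC, which binds U-rich stretches, was below 0 on all 6 arrays, at -0.43, -0.29 and -0.16 with RPS3 siRNA and -0.20, -0.42 and -0.04 with p65 siRNA. Its 6 h values were the nearest to 0, a change of 0.24 (limma adjusted p = 0.314).

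HNRNPA1 has near-identical copies in the genome, 2 of which are annotated on the array. Probe sequences were not used here, so which transcript each of these spots reads is uncertain. The HNRNPA1L2 probe was lowest at 3 h with p65 siRNA, at -0.90, and a change of 0.29 at 6 h (limma adjusted p = 0.456). The probe for the pseudogene HNRNPA1P70 was highest on that same array, at 1.59, and reached 0.74 with RPS3 siRNA at 1 h. It read -0.33 with RPS3 siRNA and 0.02 with p65 siRNA at 6 h, a change of -0.78 with the largest standard error of the 25 genes (SE 0.41, limma adjusted p = 0.279). With the series of database ID numbers in the labels as a covariate, that change was -1.32 and passed (limma adjusted p = 0.0185). Without both 1 h arrays it was -0.98 (limma adjusted p = 0.0204). The change passed in only 3 of 16 alternative settings. The remaining hnRNP genes moved little: HNRNPM 0.06, HNRNPUL2 -0.06 and HNRNPD -0.12 on the log2 scale. HNRNPA2B1, a close relative of HNRNPA1, had no value at 6 h and ran between -0.39 and 0.41 earlier.

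**Figure D2:**
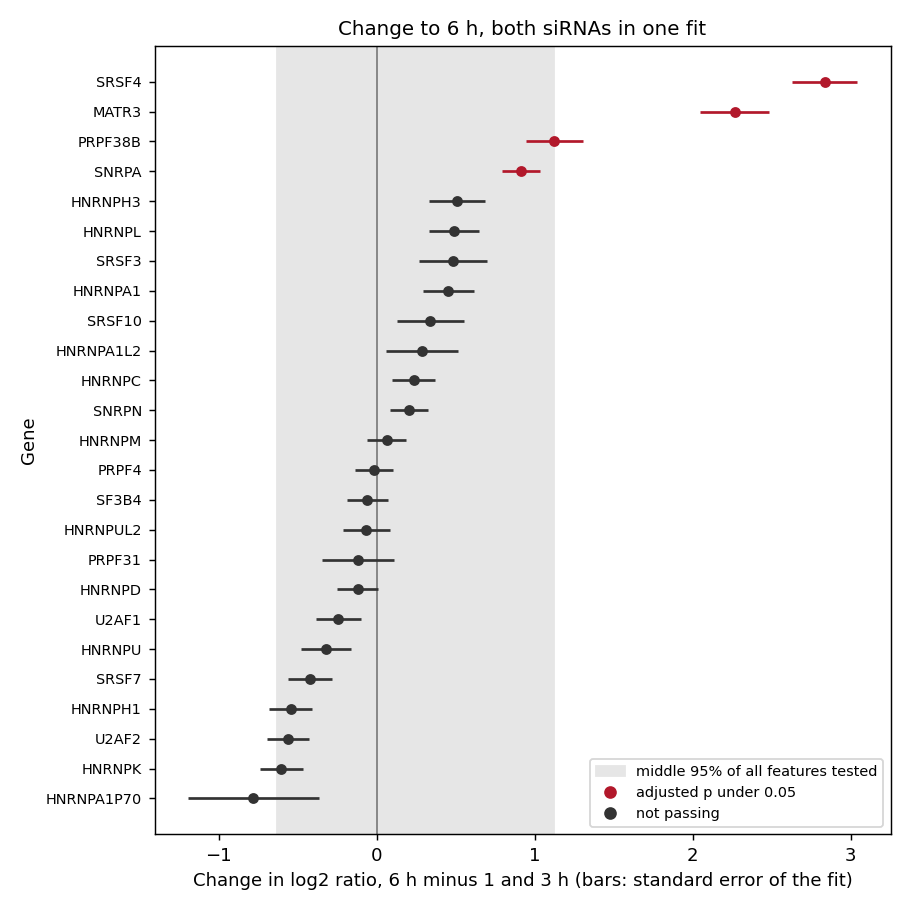
Change in log2 ratio, 6 h minus 1 and 3 h, for the 25 genes tested, with both siRNAs in 1 fit; points are estimates, bars the standard error of the fit, red points passed a limma adjusted p of 0.05, and the grey band holds the middle 95% of all 8608 features. SRSF4, MATR3 and PRPF38B lie above the band and HNRNPA1P70 below it, and the other 21 genes lie inside.

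Among the spliceosomal proteins, PRPF38B, named for its likeness to the yeast splicing factor Prp38, read -0.04, -0.50 and 0.67 with RPS3 siRNA and -0.85, -0.80 and 0.49 with p65 siRNA. The 6 h values were the only ones above 0. The change was 1.13 (SE 0.18, limma adjusted p = 0.0268), with means of 0.58 at 6 h and -0.55 earlier. PRPF38B (chr1:108692310-108702928) has 1 probe. The other PRPF genes were PRPF4 and PRPF31, which encode proteins of the U4/U6 snRNP, and PRPF31 is mutated in retinitis pigmentosa. PRPF4 stayed between -0.16 and 0.10 on all 6 arrays, with a change of -0.02. PRPF31 varied more, between -0.43 and 0.29, with a change of -0.12 (SE 0.23).

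SNRPA, a protein of the U1 snRNP that binds the U1 RNA, read -0.59, -0.55 and 0.33 with RPS3 siRNA and -0.50, -0.38 and 0.50 with p65 siRNA. The 4 earlier values lay within a narrow range below 0, and both 6 h values were above it. The change was 0.91 (SE 0.12, limma adjusted p = 0.0178), with means of 0.41 at 6 h and -0.50 earlier. SNRPA (chr19:40751203-40765389) also has 1 probe. SNRPN, an imprinted gene for an Sm core protein close in sequence to SNRPB, read 0.25, 0.15 and 0.41 with RPS3 siRNA and 0.10, 0.19 and 0.34 with p65 siRNA. It was above 0 on every array, with a change of 0.20 (limma adjusted p = 0.332). Its 4 probes disagreed, with 3 higher and 1 lower at 6 h and changes from -0.28 to 0.57, and transcripts shared with SNURF may be read by some of them.

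The 3 genes of 3′ splice site and branch point recognition had negative changes, as had 51.7% of all features. By adjusted p 0 of the 3 fell, against 0.279% of all features. U2AF2, the U2AF subunit that binds the polypyrimidine tract, read 0.08, 0.19 and -0.53 with RPS3 siRNA and 0.13, 0.30 and -0.25 with p65 siRNA. Its change was -0.56 (SE 0.13, limma adjusted p = 0.0667), from 2 probes at -0.82 and -0.39. It passed in only 3 of 16 alternative settings, 1 of them limited to features with values on all 6 arrays (adjusted p = 0.0425 by limma). U2AF1, the subunit that contacts the AG of the splice site, read 0.06, 0.14 and -0.15 with RPS3 siRNA and 0.04, 0.34 and -0.05 with p65 siRNA, a change of -0.24 (limma adjusted p = 0.317). Both U2AF subunits thus had 6 h values below all 4 earlier ones, and a near copy of U2AF1 in the genome leaves its reads uncertain. SF3B4, a subunit of the SF3B complex of the U2 snRNP, was below 0 throughout, with a change of only -0.06 (limma adjusted p = 0.809). Its sign was not shared by both siRNAs, at -0.13 with RPS3 siRNA and 0.015 with p65 siRNA, nor by its 2 probes, at -0.14 and 0.02.

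**Figure D3:**
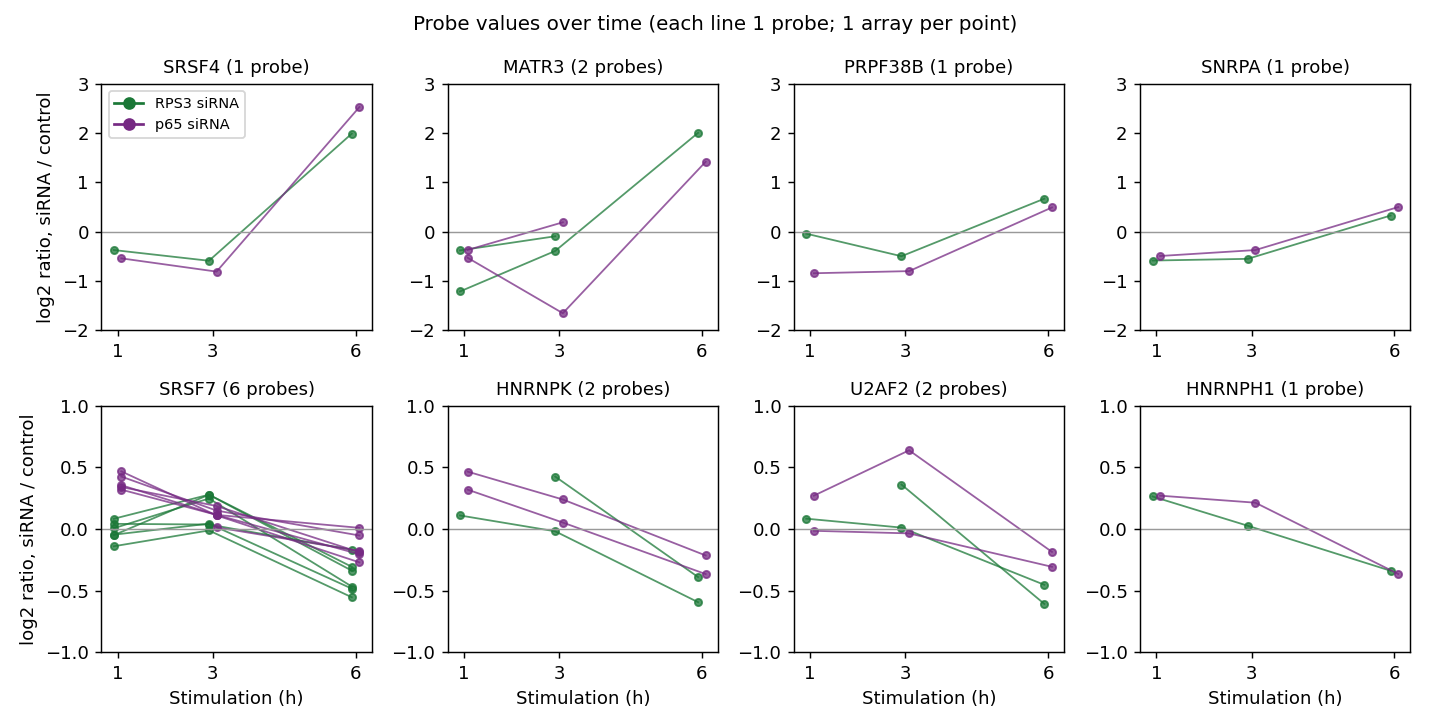
Log2 ratio of siRNA over control at 1, 3 and 6 h for single probes of 8 genes, with RPS3 siRNA in green and p65 siRNA in purple; each line is 1 probe and each point 1 array. The upper row holds the 4 genes that rose and the lower row 4 genes with negative changes, whose axis covers a smaller range; 1 MATR3 probe ends at 3 h because it was blank at 6 h.

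Over all features the change to 6 h was not symmetric. By adjusted p, 4 of the 25 genes rose, against 4.87% of all 8608 features, and 0 fell, against 0.279%. At an unadjusted p under 0.05, 7 of the 25 were higher (16.8% of all features) and 4 were lower (10.5%). Of the 24 genes measured on all 6 arrays, 10 had both 6 h values above all 4 earlier ones (22.4% of all such features) and 7 had both below (19.1%). The median change of the 25 genes was 0.06, with 13 higher and 12 lower, and that of all features -0.01. In size regardless of sign, the median change was 0.42 for the 25 genes and 0.26 for all features. The direction of the change over these genes was thus mixed.

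The 2 arrays at 6 h carry this result, and both may share 1 control RNA, since their labels name the same control. Without the RPS3 siRNA array at 6 h, SRSF4 passed and MATR3, PRPF38B and SNRPA did not (limma adjusted p = 0.109, 0.170 and 0.220), and 10 features passed in all. Without the p65 siRNA array at 6 h, 0 of the 4 passed, with SRSF4 at an adjusted p of 0.0505 by limma, and 5 features in all. In the 16 alternative settings that gave such a change, the estimates ran from 2.47 to 3.20 for SRSF4 and 1.90 to 2.66 for MATR3. They ran from 0.94 to 1.31 for PRPF38B and 0.87 to 0.95 for SNRPA. Both 6 h values of each of these 4 genes lay above all 4 earlier ones. Leaving out an array therefore could not turn the sign, and the kept sign is no separate support. With the slope per hour in place of the 6 h step, 0 genes and 0 features passed by limma, although 1678 features had an unadjusted p under 0.05. With the series of database ID numbers in the labels as a covariate, 6 of the genes passed. SRSF4, MATR3, PRPF38B and SNRPA rose, and HNRNPA1P70 and HNRNPH1 fell. In that fit 861 of 8474 features rose and 377 fell, so calls were more common over all features too. Within the 4 arrays of the second such series, which holds both 6 h arrays, 5 genes passed. SRSF4, MATR3, PRPF38B and SNRPA rose and HNRNPA1P70 fell, where 547 of 7541 features rose and 156 fell.

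Each siRNA's change was also fitted by itself, with 1 array at 6 h whose spread was assumed to be that of the earlier ones. With RPS3 siRNA 0 of 24 genes passed by limma, against 0.0488% of all features. The RPS3 siRNA changes of SRSF4 and MATR3 were 2.47 and 2.52 (limma adjusted p = 0.0612 and 0.0931). With p65 siRNA 1 of 25 genes was under the threshold, against 0.061% of all features. That gene was SRSF4, with a change of 3.20 (limma adjusted p = 0.0349, and 0.0850 without the p65 siRNA array at 3 h). The 6 h value of each siRNA has no replicate, so these p-values do not show that a change within 1 siRNA would repeat. For MATR3, p65 siRNA gave a change of 2.01 (limma adjusted p = 0.141). PRPF38B had changes of 0.94 with RPS3 siRNA and 1.31 with p65 siRNA, and SNRPA had changes of 0.90 and 0.93, in that order of siRNAs.

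The difference between the siRNAs in the change to 6 h was tested as an interaction. By limma 0 of 24 genes passed, against 0.0366% of all features, and 0 had an unadjusted p under 0.05, against 2.15%. The estimates, RPS3 siRNA minus p65 siRNA, ran from -0.73 for SRSF4 to 0.51 for MATR3. Next to these came HNRNPL at 0.47 and HNRNPA1 at 0.36 on the positive side, and HNRNPU at -0.45 and PRPF38B at -0.37 on the negative side. With 1 array in each cell at 6 h, a missing call does not show that the siRNAs act alike.

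The mean of each siRNA over the 3 times was compared with 0, with the 3 times standing in for replicates. Such a mean does not show that a gene differed from control at each time. All arrays had the siRNA RNA in Cy5, so a dye effect of a probe cannot be told apart from a difference from control. By limma 0 genes passed with RPS3 siRNA, against 0% of all features, and 3 had an unadjusted p under 0.05, against 7.71%. With p65 siRNA 0 passed, against 0%, and 2 had an unadjusted p under 0.05, against 5.06%. With RPS3 siRNA 1 gene of the 24, SNRPN, was above 0 on all 3 arrays (16.2% of all features) and 4 were below (15%). With p65 siRNA 5 of 25 were above 0 on all 3 arrays (13.4%) and 4 below (9.39%).

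SF3B4 and HNRNPC were the genes below 0 on all 6 arrays. SF3B4 read -0.20, -0.34 and -0.40 with RPS3 siRNA and -0.39, -0.25 and -0.31 with p65 siRNA. Its means were -0.31 ± 0.10 with RPS3 siRNA and -0.32 ± 0.07 with p65 siRNA (SD over the 3 times, n = 3 arrays each, limma adjusted p = 0.604 and 0.919). An offset of the same sign with both siRNAs, as here, could also come from the dyes, which was not tested. HNRNPC averaged -0.29 ± 0.14 with RPS3 siRNA and -0.22 ± 0.19 with p65 siRNA. SNRPN averaged 0.27 ± 0.13 and 0.21 ± 0.12 in the same order (SD over the 3 times, n = 3 arrays each). PRPF4 averaged -0.14 ± 0.03 with RPS3 siRNA, below 0 on each array, and 0.05 ± 0.04 with p65 siRNA, above 0 on each array. HNRNPM lay on the same sides, at -0.07 ± 0.07 with RPS3 siRNA and 0.05 ± 0.04 with p65 siRNA. HNRNPUL2 was above 0 on each p65 siRNA array, at 0.22 ± 0.08, and averaged 0.17 ± 0.17 with RPS3 siRNA.

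The siRNAs were then set against each other at matched times. By limma 0 of 26 genes passed in the difference of the means, RPS3 siRNA minus p65 siRNA, against 0% of all features, and 0 had an unadjusted p under 0.05, against 2.35%. Of the 24 genes with 3 time-matched differences, 2 were higher with RPS3 siRNA at all times and 4 were lower. The matching shares over all features were not counted, so these numbers are a description and not a result about these genes. PRPF38B was higher with RPS3 siRNA by 0.80, 0.30 and 0.18 at 1, 3 and 6 h, and HNRNPA1L2 by 0.09, 1.14 and 0.30. PRPF4 was lower with RPS3 siRNA at all 3 times, by -0.13, -0.26 and -0.19, and SNRPA by -0.09, -0.18 and -0.17. The adjusted p by limma was 1.00 for each of these 4 genes in the fit without the time point, whose spread includes the shifts between times. With the time point as a block it was 0.854 for PRPF38B, HNRNPA1L2 and PRPF4 and 0.887 for SNRPA.

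Other RNA-processing genes were counted in the same 6 h comparison from 4 further lists. Of all 8608 features in that comparison, 48.3% were higher and 4.87% rose by adjusted p. Of 18 SR-related proteins and SR kinases, 15 were higher and 3 lower, with a median of 0.34, and 1 passed. It was THRAP3, an RS-domain protein, with a change of 0.88 (limma adjusted p = 0.0356). PNN, which associates with the exon junction complex, had the highest estimate of that list, 1.42, without passing (limma adjusted p = 0.0685). Of 32 other RNA-binding splicing regulators, 19 were higher and 13 lower (median 0.05), and 4 rose. SAFB, a scaffold attachment protein, rose by 1.20, RALY, an hnRNP C relative, by 1.13, CELF2, a splicing regulator in T cells, by 1.01, and PTBP1, the polypyrimidine tract binding protein, by 0.76 (limma adjusted p between 0.0122 and 0.0278).

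Of 31 other snRNP and spliceosome complex proteins, 17 were higher and 14 lower (median 0.12), and 4 rose (4.87% of all features). DHX15, a helicase of spliceosome disassembly, rose by 1.40, CTNNBL1 by 0.98, CHERP by 0.88 and PUF60, a U2AF-related protein, by 0.60 (limma adjusted p between 0.0339 and 0.0497). Of 14 genes of mRNA 3′ end processing and export, 10 were higher and 4 lower (median 0.18), and 3 rose. THOC2, a subunit of the THO export complex, rose by 2.79 (limma adjusted p = 0.0089), close to SRSF4 in size, with RBBP6 at 0.99 and XRN1, an exonuclease of mRNA decay, at 0.85. By limma 0 genes of these 4 lists fell, against 0.279% of all features. At an unadjusted p under 0.05, 5, 8, 8 and 4 were higher in list order, against 16.8% of all features. In the same order 1, 4, 3 and 1 were lower, against 10.5%. Of 25 cytosolic ribosomal proteins without RPS3, 8 were higher and 17 lower (median -0.24), RPL8 rose by 1.00, and RPS20 and RPS29 both fell by 0.69.

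**Figure D4:**
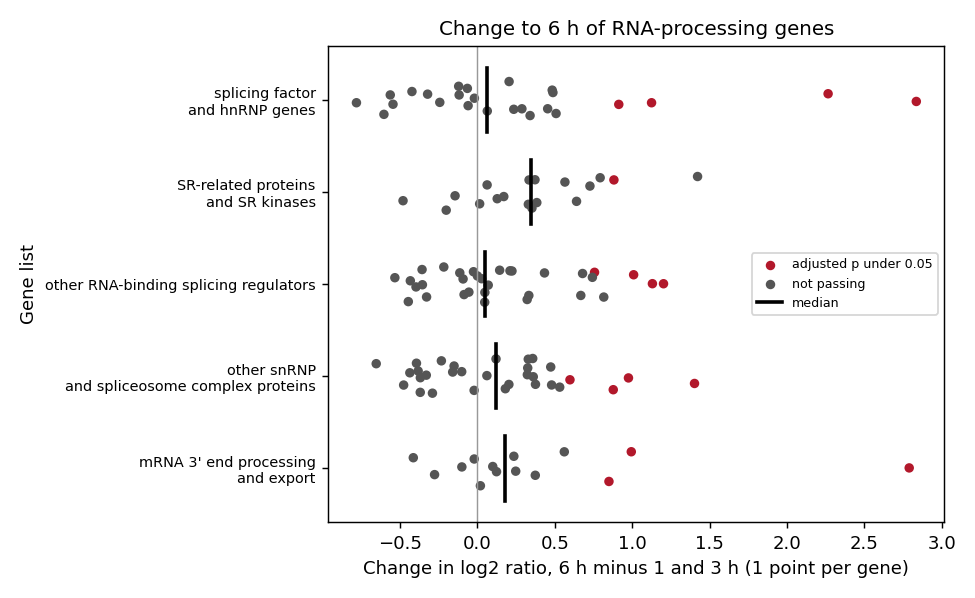
Change in log2 ratio, 6 h minus 1 and 3 h, for the splicing factor and hnRNP genes and 4 other lists of RNA-processing genes; each point is 1 gene, red points passed a limma adjusted p of 0.05, and black bars are list medians. Medians lie between 0.05 and 0.34, and SRSF4, MATR3 and THOC2 reach above 2.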

How the data were processed

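The authors deposited 1 log ratio per probe and array, here read as log2; the base, direction, background correction and normalization are not given in the sources used here. Per the labels, RNA was extracted with Trizol and labelled by oligo-dT primed reverse transcription, with no dye swap named. Genes were named by the platform annotation, which gives 1 symbol for 10169 of the 15246 probes (4604 symbols). Members and gene lists were chosen with earlier results of these data known.

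Arrays were centred on their medians, and values were averaged over the probes of a symbol. Features with values on at least 2 of 3 arrays of each siRNA were fitted with limma 3.58.1 (lmFit and eBayes) in R 4.3.3, with Benjamini-Hochberg adjustment over all features and a threshold of 0.05. The 6 h fit holds a term for the siRNA, and blanks were left out, not imputed. The fit was tested on simulated data. Named genes were, for the 6 h change, up to 10 highest and 10 lowest members whose 6 h value lay beyond both earlier values in both siRNAs. For the siRNA means they were the 5 highest and 5 lowest of 1 sign on all arrays, for the siRNA difference and the interaction the 3 highest and 3 lowest, and from the other lists every gene past the threshold. Alternatives changed the centring, scaling, probe averaging, blanks, arrays used, the coding of time and the series of ID numbers. No label describes separate cultures; the p-values therefore cover only the spread among these arrays, which may be technical. Channel intensities were not used here, signal over background is not known, and precision is limited by the number of arrays.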

Additional observations from a re-analysis of the deposited data

How the results depend on the processing

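The count of genes that changed at 6 h, 4 in the report, was 7 when only features with values on all 6 arrays were tested and 7 without both 1 h arrays. It was 0 with a slope per hour, and 0 to 5 when 1 array was left out. The count over all features, 443, became 746 with complete features only, 1059 without both 1 h arrays, 235 without both 3 h arrays, 1238 with the series of ID numbers as a covariate, 703 within the second series, 801 with each probe tested alone, 0 with a slope per hour, and 5 to 754 with single arrays omitted (259 without RPS3 siRNA at 1 h, 232 without RPS3 siRNA at 3 h, 754 without p65 siRNA at 1 h). Fewer features or arrays entered some of these fits, and the cause of the other shifts was not tested. PRPF38B missed the threshold with arrays scaled to 1 median absolute deviation (limma adjusted p = 0.0524) and without both 3 h arrays (adjusted p = 0.0532). Within RPS3 siRNA, where 0 genes passed, 1 passed without further centring, 1 with genes averaged over complete probes, 1 with each probe alone, 2 with complete features, 4 with the series as a covariate, and 0 to 2 with 1 array left out. Within p65 siRNA, where 1 passed, 4 passed with the series as a covariate and 0 to 3 with 1 array left out. With the time point as a replicate block, 0 genes passed for the mean of either siRNA or their difference, as without it. The difference RPS3 siRNA minus p65 siRNA ran from -0.45 to 0.16 for SNRPA and from -0.30 to 0.074 for U2AF2 when 1 array was left out. It turned positive for SNRPA without the RPS3 siRNA array at 1 h (0.010) or the p65 siRNA array at 6 h, and for U2AF2 without the RPS3 siRNA array at 6 h. These fits hold no term for time, so leaving out 1 array compared unequal sets of times. At matched times of 1, 3 and 6 h the difference was -0.09, -0.18 and -0.17 for SNRPA. For U2AF2 it was -0.04, -0.12 and -0.28. Of 730 comparisons for the named genes, 702 kept their direction and, where the fit gave a p-value, their side of the threshold. Where too few arrays were left for a p-value, the estimate had instead to lie within the standard error of the main fit. Most named results did not pass in the main fit, and most were chosen for 1 direction over these same arrays. That share was thus largely set by the choice and does not measure how firm the 6 h calls are.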
